A study of Mus musculus with 21 samples.

Results

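The comparison described here is between mouse oocytes that differ in their last functional copy of *Kif11* while carrying the same Cre transgene. It uses 9 of the 21 libraries of the series, chosen by their genotype labels: 4 of *Kif11* fl/del Spo11-Cre and 5 of *Kif11* wt/fl Spo11-Cre. In fl/del Spo11-Cre oocytes, a floxed allele is paired with a constitutively deleted allele, so that neither is functional once Cre has acted. In wt/fl Spo11-Cre oocytes, the wild-type allele remains after the floxed allele has been deleted. Both groups carry the meiosis-specific Spo11-Cre transgene, which is active from early prophase of meiosis. The floxed allele was made by genome editing in C57BL/6 zygotes, and the deleted allele came from offspring in which Cre had removed the floxed segment. Each library holds the poly(A) RNA of 3 fully-grown oocytes at the germinal vesicle stage, taken from females of 3 to 4 months after hormone stimulation. By the name prefixes of the libraries, which are taken here to mark the mice, the wt/fl Spo11-Cre libraries came from 3 mice (2, 2 and 1 libraries) and the fl/del Spo11-Cre libraries from 2 mice (2 each). Because oocytes are pooled, a lower level in some oocytes and in all of them cannot be told apart.

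KIF11, also called Eg5 or kinesin-5, is a kinesin with motor domains at both ends, which pushes microtubules of opposite orientation away from each other. In dividing cells it drives the separation of spindle poles, and in oocytes, which have no centrosomes, it acts on many microtubule organizing centres. The RNA was sampled before the spindle forms, in oocytes that store maternal mRNA and are nearly silent in transcription when fully grown.

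*Kif11* (ENSMUSG00000012443) is a forward-strand gene of chromosome 19 and spans 37376403 to 37421859 in GRCm38. Its main transcript has 22 exons, and by the study's drawing of the locus the floxed segment starts in intron 1 and ends in the 3′ UTR of exon 22. Both groups thus keep the promoter and exon 1 on every allele. The 250 bases upstream of the RefSeq start, chr19:37376132-37376381 of GRCm38.p6 on the forward strand, are shown because they precede the floxed segment, with matches to motifs in capitals. The first is a GC box (GGGCGG), the next an inverted CCAAT box (ATTGG) and the last a match to the cell cycle element CHR (TTTGAA, here on the reverse strand), each searched on both strands and none overlapping.

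Kif11 upstream: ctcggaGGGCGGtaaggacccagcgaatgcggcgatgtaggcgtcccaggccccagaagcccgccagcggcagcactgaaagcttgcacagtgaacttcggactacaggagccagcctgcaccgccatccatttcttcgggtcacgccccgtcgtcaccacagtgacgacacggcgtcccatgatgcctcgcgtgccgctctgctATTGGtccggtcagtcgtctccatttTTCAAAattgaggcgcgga

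Among 32851 RefSeq promoter windows of this length, 32.7% hold the GC box, 33.8% the CCAAT box and 16.0% the CHR element, so that none of these matches is rare. The coding junction of exon 1 (from 37376403 to 37376667) and exon 2 (from 37384240) is shown because an mRNA with exon 2 cannot come from the deleted allele, with the exon 2 part in capitals.

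Kif11 exon 1 to exon 2: ggtggtgagatgcagACCATTTAATCTGGC

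The total count per library ranged from 13046876 to 18454549 in wt/fl Spo11-Cre and from 13155893 to 17668498 in fl/del Spo11-Cre, and between 18234 and 19444 genes had a count. Levels are given as CPM, that is, scaled so that the counts of each library sum to 1000000. Over the 7710 genes with a mean of at least 10 CPM, libraries of different groups resembled each other by median as much as those of different mice of a group did. The Spearman correlation across these genes, which are not independent replicates, had a median of 0.975 over 20 pairs from different groups, 0.975 over 12 pairs from different mice of a group and 0.979 over 4 pairs of the same name prefix. The same prefix thus brought libraries only slightly closer by median, and not in every pair. Replicates 1 and 2 of fl/del Spo11-Cre, which share a prefix, were at 0.970, the lowest of all pairs within a group. Between groups the lowest pair was at 0.965, wt/fl Spo11-Cre replicate 5 with fl/del Spo11-Cre replicate 1.

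*Kif11* had the lowest log2 fold change of the 7710 genes with a mean of at least 10 CPM over the 9 libraries. It reached that mean through the wt/fl Spo11-Cre libraries, and *Lrmda*, at a lower mean, had a lower estimate still. For *Kif11*, the wt/fl Spo11-Cre libraries stood at 25.5, 30.5, 21.8, 27.6 and 17.6 CPM, with a mean of 24.6 ± 5.04 (SD, n = 5). In fl/del Spo11-Cre oocytes they stood at 2.70, 1.53, 1.08 and 1.82 CPM, with a mean of 1.78 ± 0.685 (SD, n = 4). The groups did not overlap, and the highest fl/del Spo11-Cre library was at 11.0% of the wt/fl Spo11-Cre mean, the lowest at 4.39%. The log2 fold change was −3.82 (SE 0.25, 95% confidence interval −4.31 to −3.32, adjusted p = 1.19e-17, edgeR). Over all libraries, 107 counts against 1938 put the level at 7.22% of wt/fl Spo11-Cre (exact 95% interval 5.89% to 8.77%). This table appears to count both mates of a read pair, since its counts for the same genes were between 1.95 and 1.96 times those of the exon 1 table (median over genes with at least 100 counts), so the interval is too narrow.

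**Figure D1:**
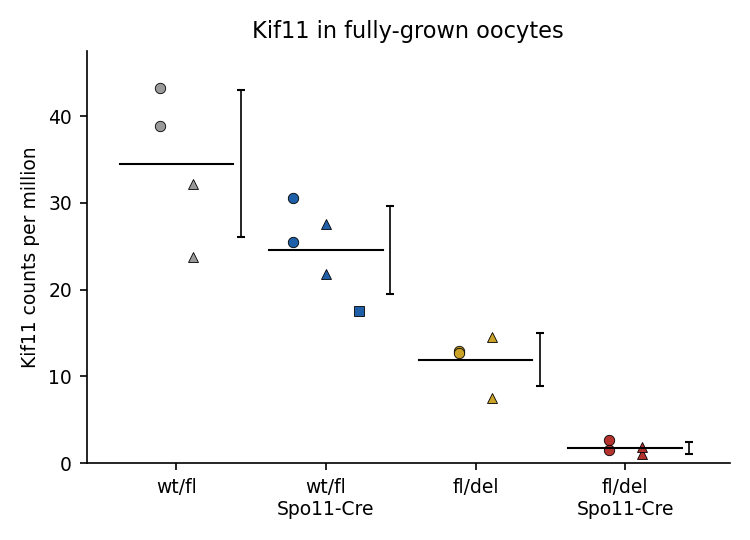
Level of *Kif11* over all exons in CPM (vertical axis, linear from 0) in the 17 libraries with and without Spo11-Cre, by genotype (horizontal axis). Symbols of different shape are libraries of different name prefix, the lines are means and the bars 1 SD. The fl/del Spo11-Cre libraries, between 1.08 and 2.70 CPM, lie below every other library.

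Exon 1, which stays on the deleted allele, was also lower. It held 7, 29, 23, 15 and 6 counts in the wt/fl Spo11-Cre libraries and 0, 1, 0 and 2 counts in the fl/del Spo11-Cre libraries, so that the groups did not overlap. The ratio of these counts per library total was 4.90%, with an exact 95% interval of 0.990% to 14.8%. Exon 22, of which a part stays on the deleted allele, held 48, 50, 56, 55 and 51 counts against 8, 10, 6 and 6 counts. This is 15.1% of wt/fl Spo11-Cre (exact 95% interval 9.97% to 22.1%), and again no library of one group reached the other. All these intervals cover counting error only, because the cDNA was amplified and its molecules carried no identifiers, so that several reads can stem from 1 molecule.

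Across the genome, few other genes differed. Of 22383 genes tested, 8 passed an adjusted p of 0.05, which is 0.0357% of them, 1 higher (0.00447%) and 7 lower (0.0313%) in fl/del Spo11-Cre. DESeq2 called 14 genes, of which 6 were among these 8. At an unadjusted p under 0.05, edgeR counted 777 genes higher and 814 lower, together 7.11% of those tested. The libraries of the groups did not overlap for 415 genes (1.85%), 226 higher and 189 lower. The TMM scaling centres the fold changes, with a median of 0.00 to 2 decimals over all genes tested, so that a change of the total mRNA per oocyte could not be seen.

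**Figure D2:**
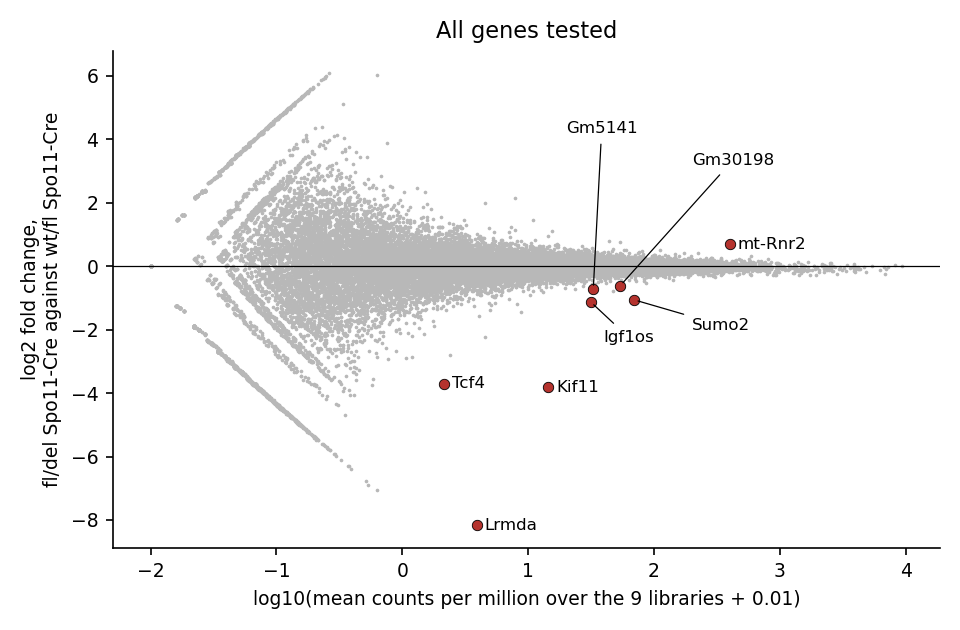
Log2 fold change of fl/del Spo11-Cre against wt/fl Spo11-Cre (vertical axis) against the log10 of the mean CPM over the 9 libraries plus 0.01 (horizontal axis), for 22383 genes in grey. The 8 genes with an adjusted p under 0.05 are in red, of which only mt-Rnr2 lies above 0, and the scatter of the grey points widens to the left, where levels are low.

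How small a difference could be seen depended on the level. Among the 7710 genes at 10 CPM or more, the 95% interval of the log2 fold change lay within −1 and 1 for 7645 (99.2%) and within −0.5 and 0.5 for 5591 (72.5%). At 1 to 10 CPM the interval lay within −1 and 1 for 2042 of 5787 genes (35.3%), and below 1 CPM for 3 of 8886. The median SE was 0.13 at 10 CPM or more, 0.43 at 1 to 10 CPM and 1.61 below 1 CPM. For most oocyte mRNAs of at least 10 CPM, a difference of more than 1 on the log2 scale would thus lie outside the interval. For genes below 1 CPM it was not detectable at this depth. These intervals take each library as a replicate, although libraries share mice. They may thus be too narrow as a bound on the difference between genotypes.

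The gene called higher by edgeR was *mt-Rnr2*, the 16S ribosomal RNA of the mitochondrial genome (ENSMUSG00000064339, chromosome M, 1094 to 2675). Its libraries stood at 261, 301, 317, 342 and 337 CPM in wt/fl Spo11-Cre and at 460, 596, 507 and 493 CPM in fl/del Spo11-Cre, without overlap. The log2 fold change was 0.69 (SE 0.10, adjusted p = 1.22e-05, edgeR), or 1.65 times by mean CPM. Without Cre, wt/fl libraries stood at 546, 445, 388 and 449 CPM, all above the highest wt/fl Spo11-Cre library and 1 of them within the fl/del Spo11-Cre range, and fl/del libraries at 277, 338, 419 and 365 CPM. The 12S ribosomal RNA, *mt-Rnr1*, was at 77.4 ± 10.6 CPM (SD, n = 5) and 94.9 ± 8.34 CPM (SD, n = 4), with a log2 fold change of 0.26 (SE 0.11, adjusted p = 0.702, edgeR). None of the 13 protein-coding mitochondrial genes was called by edgeR or DESeq2 and none had an unadjusted p under 0.05, with *mt-Cytb* of the cytochrome bc1 complex at a log2 fold change of −0.02 (SE 0.11), *mt-Co1* of cytochrome c oxidase at −0.03 (SE 0.12) and *mt-Nd1* of complex I at 0.04 (SE 0.12). Their share of all counts was 0.190% ± 0.0144 in fl/del Spo11-Cre (SD, n = 4) and 0.187% ± 0.0289 in wt/fl Spo11-Cre (SD, n = 5; two-sided exact permutation test, p = 0.889).

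Besides *Kif11*, the lower genes whose groups did not overlap and whose mean count was at least 50 were *Gm30198*, *Gm5141* and *Lrmda*. *Gm30198*, a lincRNA on chromosome 12 (102447328 to 102467609), was at 57.6, 74.5, 62.8, 64.7 and 56.5 CPM in wt/fl Spo11-Cre and at 38.5, 42.1, 40.01 and 47.2 CPM in fl/del Spo11-Cre. Its log2 fold change was −0.62 (SE 0.12, adjusted p = 0.0140, edgeR), and the highest fl/del Spo11-Cre library lay below the lowest of the other group. *Gm5141*, a predicted protein-coding gene on chromosome 13 (62772200 to 62785808), was at 34.5, 45.8, 35.0, 47.0 and 36.3 CPM against 18.6, 20.9, 29.2 and 28.9 CPM. Its log2 fold change was −0.73 (SE 0.15, adjusted p = 0.0309, edgeR). Both calls were lost when any one of fl/del Spo11-Cre replicate 1 or 2 or wt/fl Spo11-Cre replicate 2 or 4 was left out, and without both of the former the adjusted p was 0.383 for *Gm30198* and 0.858 for *Gm5141* (edgeR). With single libraries left out, the log2 fold changes were between −0.67 and −0.55 for *Gm30198* and between −0.83 and −0.63 for *Gm5141*.

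*Lrmda*, named for a leucine-rich protein of melanocyte differentiation (chromosome 14, 22019712 to 23056085), was nearly absent from fl/del Spo11-Cre oocytes. It held 66, 97, 203, 110 and 94 counts in the wt/fl Spo11-Cre libraries and 1, 0, 0 and 0 counts in the fl/del Spo11-Cre libraries. The level was 0.229% of wt/fl Spo11-Cre by pooled counts (exact 95% interval 0.00580% to 1.28%), with an adjusted p of 2.23e-04 from edgeR, whose fold change is no bound for a gene at 0. The same presence or absence split the groups without Cre by mouse. In wt/fl it held 0 and 0 counts in the libraries of one name prefix and 54 and 99 in those of the other, and in fl/del it held 0 and 2 counts in one and 72 and 150 in the other. The gene thus varied between mice of the same genotype, and with 2 mice in fl/del Spo11-Cre, the genotype and the mouse cannot be told apart for it.

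The other called genes fell outside the rule for named genes and are given because they were called. *Tcf4*, a basic helix-loop-helix transcription factor (chromosome 18), held 40, 56, 35, 109 and 43 counts against 2, 2, 0 and 12 counts, a log2 fold change of −3.70 (SE 0.77, adjusted p = 0.0363, edgeR). It was low in all groups, and the 2 Cre-carrying groups did not overlap. The mean was 3.64 CPM in wt/fl Spo11-Cre and 0.292 CPM in fl/del Spo11-Cre. Without Cre it was 1.18 CPM in wt/fl and 1.02 CPM in fl/del, so that wt/fl Spo11-Cre was the highest of the 4 groups. *Igf1os* (chromosome 10, 87826377 to 87863381), annotated as antisense to the growth factor gene *Igf1*, was at 28.7, 46.9, 41.7, 48.9 and 38.6 CPM against 10.2, 10.2, 12.8 and 44.4 CPM. A single fl/del Spo11-Cre library lay within the range of the other group, and the log2 fold change was −1.13 (SE 0.23, adjusted p = 0.0309, edgeR), and between −1.91 and −0.92 with single libraries left out. The cDNA kit does not keep the strand, so reads where it overlaps *Igf1* cannot be assigned to one of them. *Igf1* itself was at 2.72 CPM or less in every library of the 2 groups, with a log2 fold change of 0.72 (SE 0.60, adjusted p = 0.911, edgeR).

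*Sumo2*, which encodes a small ubiquitin-like modifier (chromosome 11, 115523102 to 115536276), was at 44.4, 142, 42.9, 114 and 106 CPM in wt/fl Spo11-Cre and at 42.5, 42.6, 45.0 and 45.4 CPM in fl/del Spo11-Cre. The fl/del Spo11-Cre libraries were close together, whereas those of wt/fl Spo11-Cre were either near the same level or more than 100 CPM, also within a mouse. The groups overlapped, and the log2 fold change was −1.06 (SE 0.22, adjusted p = 0.0413, edgeR). In fl/del without Cre, 1 of 4 libraries was likewise at 105 CPM. The calls of *Tcf4*, *Igf1os* and *Sumo2* were also lost without any one of the 4 libraries named for *Gm5141*, and over all alternatives the adjusted p reached 0.779 for *Tcf4* and 0.867 for *Igf1os* (edgeR, without fl/del Spo11-Cre replicates 1 and 2) and 0.652 for *Sumo2* (DESeq2).

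**Figure D3:**
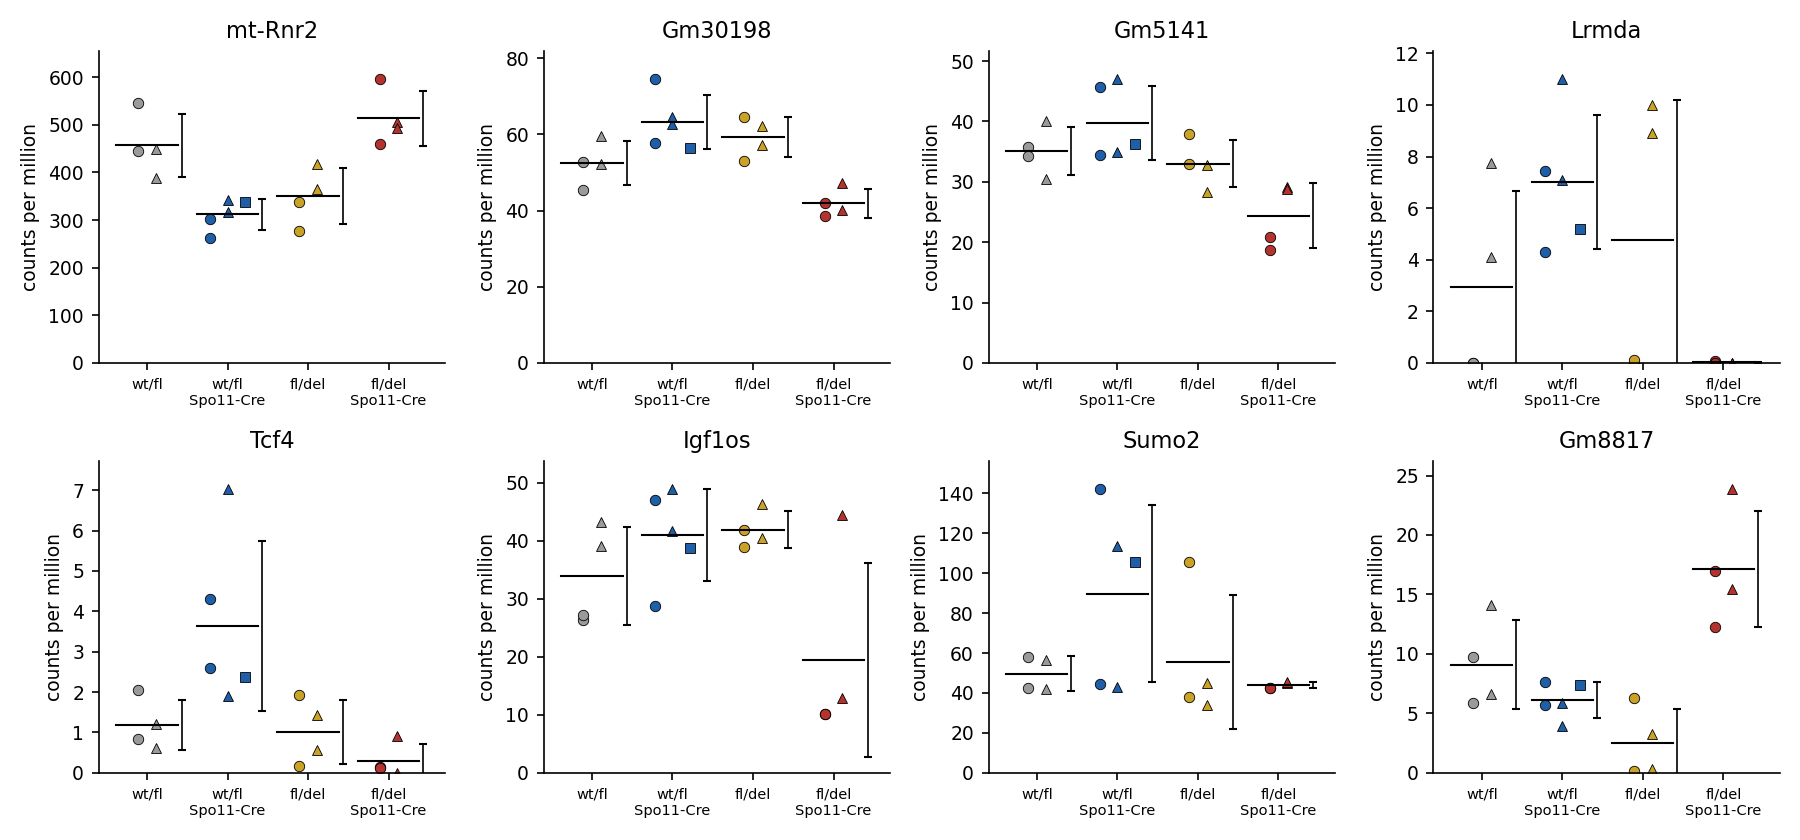
CPM (vertical axes, linear from 0) in the 17 libraries with and without Spo11-Cre for the 7 called genes other than *Kif11* and for *Gm8817*, by genotype. Symbols of different shape are libraries of different name prefix, lines are means and bars 1 SD, not drawn below 0. *Lrmda* is split by prefix in both groups without Cre, *Sumo2* and *Igf1os* overlap between the Cre-carrying groups, and mt-Rnr2 is also high in wt/fl without Cre.

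Lists of genes with known roles in the spindle, in meiosis and in the oocyte were read against this background. They hold 428 symbols in 18 lists, of which 400 were tested. None was called by edgeR, by DESeq2 (which gave 11 of them no adjusted p) or by limma. An unadjusted p under 0.05 was found for 50 (12.5%), against 7.11% of all genes. These shares are not of like level, since most list members were at 10 CPM or more. There, the share over all genes was 8.47%, and among the 116 most abundant genes it was 15.5%. Whether the lists exceed genes of like level was not tested. The smallest adjusted p among the list members was 0.331. Of 302 members at 10 CPM or more, 300 had a 95% interval within −1 and 1.

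No other spindle motor passed the test. Of 26 kinesins and other spindle motors tested, 2 had an unadjusted p under 0.05, both higher, and the median log2 fold change was 0.00. *Kif23*, a motor of the central spindle, was at 682 ± 47.1 CPM (SD, n = 5) and 684 ± 65.4 CPM (SD, n = 4), a log2 fold change of −0.03 (SE 0.08). *Kif22*, which moves chromosome arms, was at 0.16 (SE 0.08) and *Cenpe*, a kinetochore motor, at −0.04 (SE 0.08) on the same scale. The members at 10 CPM or more lay between −0.19 (*Dync1i2*, an intermediate chain of dynein) and 0.23 (*Kif20a*, a motor of cytokinesis).

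No gene of microtubule organization passed the test in the fit of 17 libraries. The 30 microtubule organizing centre genes had a median log2 fold change of 0.08, the 20 genes of the Ran pathway and spindle assembly 0.00, the 24 microtubule-associated proteins 0.00 and the 13 tubulins 0.06. *Aspm*, which focuses spindle poles, was at −0.10 (SE 0.07), *Nedd1*, which recruits the gamma-tubulin ring complex, at −0.04 (SE 0.08) and *Tacc3*, a binding partner of clathrin and chTOG on spindle microtubules, at −0.12 (SE 0.08). *Prc1*, which crosslinks antiparallel microtubules as KIF11 does, was at −0.04 (SE 0.08). Among members at 10 CPM or more, the highest value was that of *Tuba3b*, an alpha-tubulin, at 0.51 (SE 0.18, adjusted p = 0.702, edgeR), which was called under 3 of 23 alternatives and reached 0.80 (adjusted p = 0.0295, edgeR) without wt/fl Spo11-Cre replicate 3. The lowest values at 10 CPM or more were those of *Kiz*, a centrosomal protein, at −0.55 (SE 0.25, unadjusted p = 0.0295), and *Hmmr*, a spindle assembly factor, at −0.42 (SE 0.14, unadjusted p = 0.00394), each with an adjusted p of 0.702 from edgeR.

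Kinase, kinetochore and checkpoint genes were not called either. The 18 genes of the Aurora and Polo kinases and the passenger complex had a median of 0.08, the 32 kinetochore and centromere genes 0.00 to 2 decimals and the 12 spindle checkpoint genes 0.01, with 1, 4 and 0 members at an unadjusted p under 0.05. *Birc5* (survivin), of the passenger complex, was at −0.03 (SE 0.07) and *Aurkc*, a kinase of germ cells, at −0.09 (SE 0.08). The checkpoint genes *Mad2l1*, *Bub1b* and *Bub3* were at −0.03 (SE 0.07), 0.07 (SE 0.09) and 0.03 (SE 0.08), and for all 11 checkpoint genes at 10 CPM or more the interval lay within −1 and 1.

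Of 46 meiotic cell cycle genes, 6 had an unadjusted p under 0.05 with a higher level and 1 with a lower level, and the median was 0.07. Over all genes, the share with such a p was 7.11%, and 8.47% at 10 CPM or more. Whether this list exceeds genes of like level was not tested. The higher ones include *Cdc20*, an activator of the anaphase-promoting complex, at 0.27 (SE 0.10), and *Ccne2*, a cyclin, at 0.38 (SE 0.13), both with an adjusted p of 0.702 (edgeR). *Ccnb1*, the cyclin of M phase, was at 0.11 (SE 0.08), and *Mos*, a kinase that oocytes need for arrest at metaphase II, at −0.18 (SE 0.08). The 16 cohesin genes had a median of 0.01.

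Of 33 oocyte genes tested, none was called. At an unadjusted p under 0.05, 8 were lower and 2 higher, and the median was −0.09 against 0.00 for all genes. The 31 members at 10 CPM or more had a median of −0.10, against 0.00 for all genes of that level. The share of all genes with such a p depended on level, with 3.87% at 1 to 10 CPM and 15.5% among the 116 most abundant. Many oocyte genes are abundant, and whether their count exceeds that of genes of like level was not tested. The lowest at 10 CPM or more was *Nlrp9b*, an NLR family gene of oocytes, at −0.29 (SE 0.08, adjusted p = 0.331, edgeR). *Ooep* and *Nlrp5*, the lowest listed genes of the subcortical maternal complex, were at −0.25 (SE 0.09) and −0.27 (SE 0.11). Of the same complex, *Tle6* was at −0.01 (SE 0.08), *Khdc3* at −0.09 (SE 0.10) and *Padi6* at −0.14 (SE 0.11). *Nobox*, a transcription factor of oocytes, was at 0.23 (SE 0.09). *H1foo*, the linker histone of oocytes and the most abundant of the list at 9269 and 9453 CPM, was at 0.00 (SE 0.06). The 28 genes of maternal mRNA storage and decay had a median of 0.04, with 2 higher and 2 lower at an unadjusted p under 0.05. *Btg4*, an adaptor of maternal mRNA deadenylation, was at −0.13 (SE 0.07), *Zar1*, which stores maternal mRNA, at 0.10 (SE 0.08) and its relative *Zar1l* at −0.02 (SE 0.08).

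**Figure D4:**
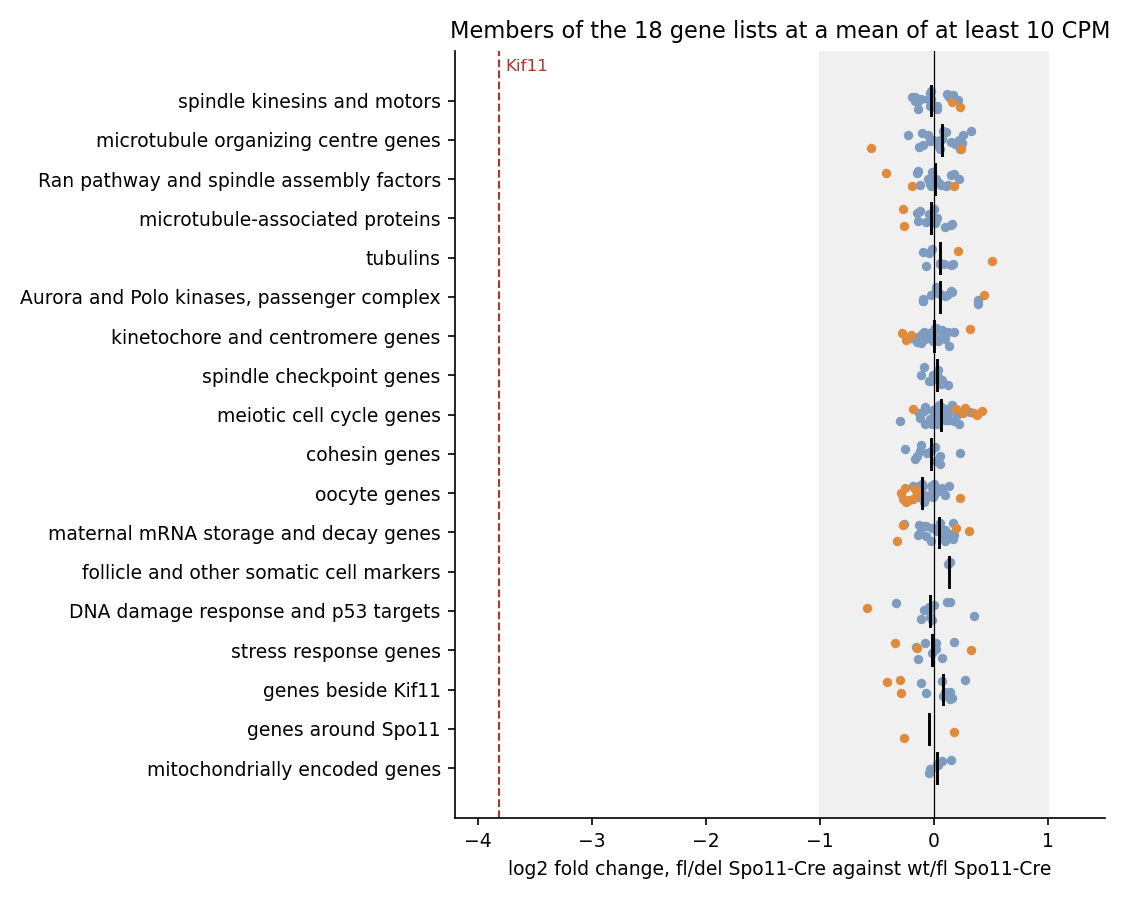
Log2 fold change of fl/del Spo11-Cre against wt/fl Spo11-Cre (horizontal axis) of the members of each of the 18 lists (vertical axis, 1 row per list) with a mean of at least 10 CPM. Points in orange have an unadjusted p under 0.05, black bars are list medians, the grey band spans −1 to 1 and the dashed line is *Kif11* at −3.82. All members lie inside the band, and the medians lie between −0.10 and 0.13.

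No gene of DNA damage or stress was called. The 25 genes of the DNA damage response and p53 targets had a median of −0.01, with 1 higher and 1 lower at an unadjusted p under 0.05, and the 25 stress response genes a median of −0.02, with 2 higher and 3 lower. *Chek1*, a checkpoint kinase, was at −0.11 (SE 0.07), *Mdm2*, the ubiquitin ligase of p53, at 0.11 (SE 0.11) and *Hspa8*, a constitutive heat shock protein, at 0.02 (SE 0.08).

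The neighbours of *Kif11* on chromosome 19 were not called either. Of 20 tested, 3 had an unadjusted p under 0.05, all lower. *Hhex*, a homeobox gene and the nearest of the list downstream, was at 0.16 (SE 0.11), and *Ide*, the insulin-degrading enzyme and the nearest of the list upstream, was at 0.14 (SE 0.13). *Plce1*, a phospholipase that starts at 38481109, was at −0.30 (SE 0.09, adjusted p = 0.449, edgeR). Of 6 genes around *Spo11* tested, 1 was higher and 1 lower at an unadjusted p under 0.05, *Rae1* at 0.17 (SE 0.08) and *Rbm38* at −0.27 (SE 0.11), both with an adjusted p of 0.702 (edgeR). The share of all genes tested with such a p was 7.11%. Whether the neighbours of *Kif11* or the genes around *Spo11* exceed it was not tested.

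Markers of follicle and other somatic cells summed to 104 ± 8.29 CPM in fl/del Spo11-Cre (SD, n = 4, from 95.7 to 114) and to 92.4 ± 11.3 CPM in wt/fl Spo11-Cre (SD, n = 5, from 73.9 to 103). The higher mean in fl/del Spo11-Cre did not pass (two-sided exact permutation test, p = 0.0952, where 0.0159 is the smallest that 4 against 5 libraries allow). The test takes each library as independent, although libraries share mice, so it cannot show that the groups are alike. Of 25 markers, 10 had no count in the 9 libraries, among them the granulosa cell genes *Amh*, *Foxl2* and *Fst* and the collagen gene *Col1a1*, and 21 were below 1 CPM in both groups. Nearly all of the sum came from *Cyp19a1*, at 60.5 and 67.9 CPM, and *Nr5a2*, at 24.8 and 27.6 CPM. The 33 oocyte genes summed to 71323 ± 4110 CPM (SD, n = 4) and 74792 ± 2616 CPM (SD, n = 5), so that the label as oocytes holds by these markers.

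The difference between fl/del and wt/fl was also taken among the 8 libraries without Cre, which share no library with the comparison above. It is not the same step in *Kif11* dose. Without Cre, fl/del keeps a functional floxed allele and wt/fl keeps both alleles. With Cre, fl/del keeps no functional allele and wt/fl keeps the wild-type one. There, 5 genes were called by edgeR, and *Kif11* was the only gene called in both, with a log2 fold change of −1.50 (SE 0.22, adjusted p = 8.47e-05, edgeR) without Cre. Across the 7710 genes at 10 CPM or more, the log2 fold changes with and without Cre had a Pearson correlation of −0.24 and a Spearman correlation of −0.29. These are across genes, which are not independent replicates, and describe these 17 libraries only. The letter and number that end the library names also follow the groups, with fl/del and wt/fl in reverse order when Cre is present. What they stand for is not labelled. An effect that follows them cannot be told apart from the groups, here and in the interaction, and was not tested.

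The difference between both fold changes, that is, the interaction term of transgene and allele, passed an adjusted p of 0.05 for 23 genes (0.103% of those tested), 14 higher and 9 lower, and 5 of the 8 genes called above were among them. It was −2.32 (SE 0.32, adjusted p = 1.21e-05, edgeR) for *Kif11* and 1.06 (SE 0.14, adjusted p = 5.71e-06, edgeR) for *mt-Rnr2*. For *Kif11*, a negative value follows from the deletion design, since Cre removes the last functional allele only in fl/del. In limma with the name prefix as a random effect, the interaction of *Kif11* was −2.42 and lost its call (adjusted p = 0.0850, limma). The correlation within a prefix was −0.0040 in that fit, so the prefix had little weight in it. With sums by name prefix in edgeR, the *Kif11* interaction kept its call. For *Lrmda* the adjusted p was 0.00222 from edgeR, and the call was lost under 3 alternatives. *Gm8817*, a lincRNA on chromosome X (167063194 to 167070380), was at 7.62, 5.67, 3.90, 5.87 and 7.39 CPM in wt/fl Spo11-Cre and at 12.2, 16.98, 15.5 and 23.9 CPM in fl/del Spo11-Cre, without overlap. Its log2 fold change of 1.46 (SE 0.37) did not pass among all genes (adjusted p = 0.243, edgeR). It was called under 4 alternatives, among them the fit of only the 9 compared libraries (1.46, adjusted p = 0.00204, edgeR) and sums by name prefix (1.41, adjusted p = 0.0125, edgeR). The log2 fold change without Cre was −1.78 (SE 0.42), an interaction of 3.24 (SE 0.56, adjusted p = 0.00222, edgeR) that was lost under 2 alternatives. *Tuba3b* was at 85.6, 72.6, 160, 76.9 and 68.1 CPM against 132, 97.2, 136 and 172 CPM, with overlap, and had an interaction of 1.36 (SE 0.27, adjusted p = 0.0197, edgeR). That call was lost under 7 alternatives, among them without fl/del Spo11-Cre replicate 4 (1.23, adjusted p = 0.0656, edgeR) and without fl/del replicate 3 (1.29, adjusted p = 0.0770, edgeR). Reads of *Tuba3b* may be shared with its near-identical copy *Tuba3a*, which was at a log2 fold change of 0.15 (SE 0.08), so its values are uncertain.

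**Figure D5:**
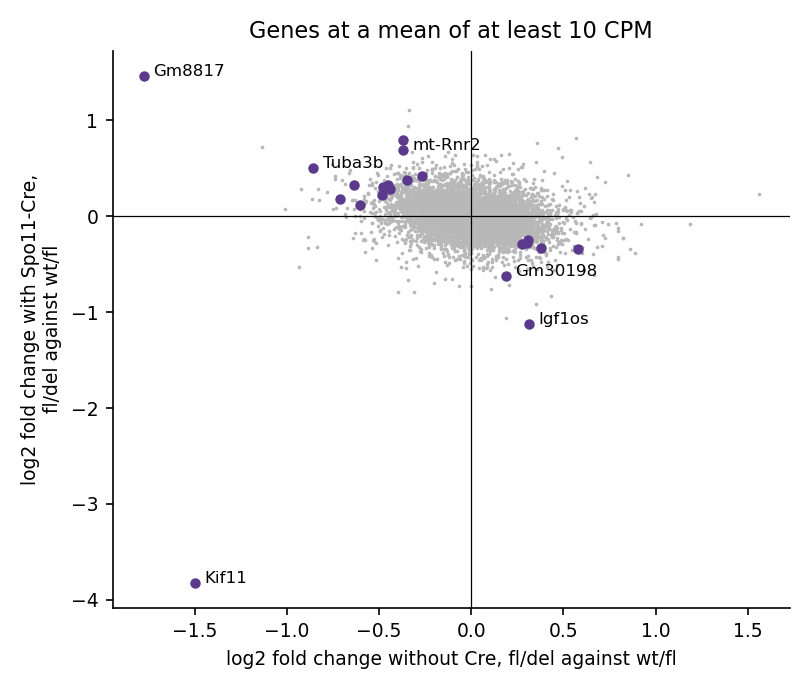
Log2 fold change of fl/del against wt/fl with Spo11-Cre (vertical axis) and without Cre (horizontal axis) for 7710 genes with a mean of at least 10 CPM over the 9 libraries, in grey, with those of an interaction adjusted p under 0.05 in purple. *Kif11* lies at −3.82 and −1.50, lower in both, while the other 21 purple points have opposite signs in the 2 comparisons. The purple genes were picked for a large difference between the 2 values, which by itself favours opposite signs.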

How the data were processed

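Poly(A) RNA of 3 oocytes per library was amplified as full-length cDNA. Read pairs (150 bp) were trimmed by the authors with fastp and mapped with HISAT2 2.2.1 on GRCm38, and unique reads were assigned to the genes of Ensembl release 93 by featureCounts 2.0.3. The deposited counts are not normalized. The authors' deposited TPM values served only as an alternative, and how they were computed is not given in the sources used here. Positions and symbols are from GENCODE on GRCm38.

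For the all-exon counts of 17 libraries (4 genotypes), edgeR 4.0.16 was used (R 4.3.3; TMM, glmQLFit, glmQLFTest) for genes with a count in at least 3 libraries, with Benjamini-Hochberg adjustment. Each library was a replicate. Libraries of a mouse are not independent, so p-values may be too small and confidence intervals too narrow. The correlation of libraries with the same prefix, estimated by limma 3.58.1, was −0.0040. Sums were compared by exact permutation tests (scipy 1.17.1). Figures used matplotlib 3.10.9. The fit was tested on simulated data.

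The comparison, lists and tests were chosen with earlier results of these data known. Named genes are *Kif11*; called genes with a mean count of at least 50 and no overlap, up to 12 per direction by fold and 5 protein-coding ones by p; called list members, or the 3 most abundant of a list without one, some of which are given only as part of their list; and the 5 genes of smallest interaction p. Other list members with an unadjusted p under 0.05, or at the ends of a list's range, were picked after their values were seen, and 1 list member is not reported here. Alternatives were RLE factors, DESeq2 1.42.0, other filters, other sets of libraries, sums by prefix, a replicate block and leaving out libraries. Exact intervals are Clopper-Pearson at 95%.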

Additional observations from a re-analysis of the deposited data

Results flagged for a closer look

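Among the named genes and both sums, 8 values lay far from the other libraries of their group by Dixon's ratio, out of 132 groups of libraries tested. Chance gives such a value in about 1 in 20 groups, so that this number is near what chance gives. In fl/del Spo11-Cre replicate 1 these were *Lrmda* at 0.0711 CPM, a single count where the other libraries had 0, and *Cenpn*, a centromere protein, at 662 CPM against 581 to 584 CPM. In replicate 4 of that group, *Igf1os* was at 44.4 CPM against 10.2 to 12.8 CPM and *Tcf4* at 0.912 CPM against 0 to 0.142 CPM. In replicate 3, *Bub3* was at 339 CPM, below 382 to 388 CPM. In wt/fl Spo11-Cre, *Bub3* was at 392 CPM in replicate 1, above 342 to 355 CPM, *Tuba3b* at 160 CPM in replicate 3, above 68.1 to 85.6 CPM, and *Nedd1* at 200.2 CPM in replicate 5, below 217 to 224 CPM.

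The difference between the log2 fold changes with and without Cre passed the interaction test for 7 named genes. It was −2.32 for *Kif11*, 1.06 for *mt-Rnr2*, −8.80 for *Lrmda*, −0.81 for *Gm30198*, 3.24 for *Gm8817*, 1.36 for *Tuba3b* and −1.44 for *Igf1os*, with adjusted p from 5.71e-06 to 0.0485 (edgeR). For *Lrmda* the value rests on libraries without a count and is no bound.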

How the results depend on the processing

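*Kif11* and *mt-Rnr2* were called under all 23 alternatives, with log2 fold changes of −4.14 to −3.56 and of 0.59 to 0.74. *Lrmda* was called under 22 and lost without both fl/del Spo11-Cre libraries of the prefix m918 (adjusted p = 0.0813, edgeR). *Gm30198* and *Igf1os* kept their call under 13, *Gm5141* and *Tcf4* under 11 and *Sumo2* under 9, in the same direction throughout. All 5 were lost without fl/del Spo11-Cre replicate 1 or 2 or wt/fl Spo11-Cre replicate 2 or 4, and *Gm30198*, *Igf1os*, *Tcf4* and *Sumo2* also without fl/del Spo11-Cre replicate 3, and *Sumo2* without fl/del Spo11-Cre replicate 4 or wt/fl Spo11-Cre replicate 5. The interaction was lost under 1 alternative for *Kif11*, 2 for *Gm8817*, 3 for *Lrmda* and 7 for *Tuba3b*. With single libraries left out, *Kif11* was at −4.09 to −3.63, between 1 and 5 genes were higher, between 2 and 7 lower, and between 4 and 60 had an interaction. Without fl/del Spo11-Cre replicate 2, wt/fl Spo11-Cre replicate 2 or wt/fl Spo11-Cre replicate 4, only 3 genes were called in all. The genes higher were 5 with DESeq2, 18 without a filter on low counts, 3 with only the 9 compared libraries, 2 with sums by name prefix and 2 with limma and the prefix as a random effect. The genes lower were 21 without a filter, 4 with all 21 libraries and 3 with filterByExpr. The genes with an interaction were 74 with DESeq2, 138 without a filter, 11 with sums by prefix, 5 with limma, 4 with all 21 libraries and 2 with filterByExpr. Leaving out both libraries of a prefix, chosen after seeing the data like limma and the fit without fl/del replicate 3, gave 5 genes higher (m917) and 2 (m918), 3 lower (m916 and m918) and 56 (m916) and 5 (m918) with an interaction. The cause of these changes was not tested.

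The replicate numbers share only a number, as same-numbered libraries of the 2 groups deviated with correlations of 0.07, −0.05, 0.10 and 0.06, and not every library correlated best with its own number. With the replicate block, 9 genes were higher, 20 lower and 96 had an interaction, and all 8 called genes were among them. The sums of somatic markers and of mitochondrial genes did not pass under any alternative, with differences of 6.72 to 14.1 CPM and of −0.00849 to 0.00968 percentage points with single libraries left out.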
